A study of Mus musculus with 15 samples.

Results

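Gene expression in Taf5l knockout mouse embryonic stem cells was compared with that of the wild-type cells of the same experiment, across every gene with enough reads to test. The comparison was chosen by sample title and rests on 6 of the 15 libraries of the series, 3 labelled Taf5l-KO and 3 labelled as J1 wild type for the Taf knockouts (WT-Taf). J1 is a mouse embryonic stem cell line; all groups were grown in medium with 15% fetal calf serum and 1000 U per ml of leukaemia inhibitory factor (LIF), and the knockout cells differ from the wild type, per the labels, in Taf5l only. The series also holds 3 Taf6l-KO libraries from the same experiment, which share the estimate of spread here and serve a direct contrast, and 6 libraries of a separate Myc knockout experiment. RNA was sequenced after depletion of ribosomal RNA with a kit that keeps the strand. The labels do not say that the libraries of a group came from separate cultures, nor whether the knockout is 1 clone. The p-values therefore rest on the spread among libraries, and that spread may be technical.

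TAF5L and TAF6L are TAF-like subunits of SAGA, a large coactivator complex. SAGA carries a histone acetyltransferase and a deubiquitinase, and it helps to bring the general transcription machinery to promoters. In mouse embryonic stem cells TAF5L and TAF6L have been studied as supports of the self-renewing state, in part through MYC, a transcription factor of growth genes.

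Library totals were 17139357 to 20655500 counts in Taf5l-KO and 14935631 to 20337365 in WT-Taf. Genes with enough reads numbered 15743. Levels below are CPM, the counts of a gene scaled to the TMM-adjusted size of its library, and a difference is a log2 fold change of Taf5l-KO over WT-Taf with its standard error (SE). A gene was called when its Benjamini-Hochberg adjusted p in edgeR's quasi-likelihood test was under 0.05, and "rose" and "fell" are used only for called genes. Of the defining markers of embryonic stem cells all 8 were measured, with summed levels of 4255 to 4361 CPM in Taf5l-KO and 4792 to 4855 CPM in WT-Taf; all such marker sums use plain library totals, without the TMM adjustment. Markers of feeder fibroblasts, mostly Thy1 and Pdgfrb, summed to 7.70 to 8.71 CPM against 10.8 to 13.1 CPM, with Dcn and Lum at 0 in all 6 libraries. By the same plain totals Thy1 was at 3.09, 4.12 and 3.24 CPM against 7.29, 6.59 and 6.76 CPM. Pdgfrb was at 3.50, 3.39 and 3.50 CPM against 2.77, 3.25 and 4.55 CPM, with overlap between the groups. In bulk RNA, fewer cells of a type and less RNA per cell cannot be told apart.

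The targeted gene was examined first. Taf5l stood at 42.9, 42.8 and 41.7 CPM in the 3 Taf5l-KO libraries and at 88, 85.2 and 84.4 CPM in the 3 WT-Taf libraries, a difference of -1.02 ± 0.037 (adjusted p = 3.78e-10). The groups were far apart, and about the same residual level remained in each knockout library. The labels do not say which stretch of the gene was disrupted. Its partner Taf6l was at 18.6, 21.5 and 21.3 CPM in Taf5l-KO and 26.8, 26.3 and 25.2 CPM in WT-Taf (-0.35 ± 0.068).

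SAGA and its sister complex TFIID, the promoter-binding complex that shares several subunits with it, changed in both directions. Of 21 SAGA subunits 6 rose and 6 fell, against 17.4% and 15.9% of all tested genes, and the median of the list was -0.01. Among the rises were Atxn7l1 (0.58) and Atxn7 (0.51), which belong to the deubiquitinase module or resemble its anchor, Tada3 (0.24) of the acetyltransferase module and the scaffold Trrap (0.22). Falls besides Taf5l and Taf6l were Sf3b3 (-0.33) and the histone-fold subunits Taf9 (-0.42), Taf12 (-0.40) and the X-linked Taf9b (-0.90), which SAGA and TFIID share. The acetyltransferase Kat2a was at 145, 138 and 141 CPM in Taf5l-KO and 147, 145 and 149 CPM in WT-Taf (-0.06 ± 0.035) and was not called. Taf5, the TFIID counterpart of TAF5L, rose from 40.6 ± 0.249 to 49.5 ± 2.06 CPM (SD, n = 3), a difference of 0.29, while the X-linked Taf1, the largest TFIID subunit, fell (-0.37).

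The response was broad and mostly small. In all, 2735 genes rose and 2499 fell, 33.2% of those tested, and the median difference over all tested genes was 0.00. Rises had a median size of 0.34 on the log2 scale and falls of 0.28 in absolute terms. Differences under 0.5 made up 66.7% of rises and 75.7% of falls, whereas 276 rises and 158 falls were at least 2-fold. The 3 knockout libraries lay entirely above or below the 3 wild-type libraries in 96.4% of the rises and 97.5% of the falls (groups did not overlap, higher, in 22.7% and, lower, in 22% of all tested genes). The biological coefficient of variation, 1 value for the 9 libraries of the fit, was 4.23%. For 4644 genes, 29.5% of those tested, the 95% interval of the difference lay within 0.25 of 0. The knockout libraries spread more among themselves than the wild-type ones. Over 10995 genes of higher level the median SD of log2(CPM + 0.5) was 0.067 in Taf5l-KO and 0.058 in WT-Taf. Chi-square per degree of freedom between pairs of libraries, on raw counts, was 9.60 to 14.1 and 2.68 to 3.61.

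The largest rises among well-measured genes included receptors, signalling inhibitors and surface proteins. Nrp2, a co-receptor for semaphorins and vascular growth factors, was at 29.1, 28.6 and 27.6 CPM in Taf5l-KO and 4.63, 3.58 and 4.06 CPM in WT-Taf (2.80 ± 0.083). Meis2, a TALE-class homeobox transcription factor, was at 21.2, 21.1 and 19 CPM against 4.79, 5.76 and 4.53 CPM (2.01 ± 0.1). No knockout library came near a wild-type one for either gene, but lack of overlap was a condition for being named here. Egr1, an immediate early transcription factor, was at 31.4, 29.9 and 31.1 CPM against 8.83, 8.0 and 8.99 CPM (1.84 ± 0.064), and Cdkn2a, which encodes the cell cycle inhibitor p16INK4a and the p53 activator p19ARF, at 12.3, 12.1 and 12.1 CPM against 2.64, 3.63 and 4.4 CPM (1.79 ± 0.13). Cdkn2a was almost equal in the 3 knockout libraries, while its wild-type libraries spread more widely. Lefty1 (2.34), Anxa2 (2.06), Lefty2 (1.94) and Lad1 (1.89), an anchoring filament protein of epithelial basement membranes, complete the 8 largest rises outside small RNAs and genes with clone-like names.

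The 8 largest falls included genes of neurons, imprinting and redox metabolism. Grb10, an imprinted adaptor of growth factor receptors, was at 62.1, 63.1 and 70.4 CPM in Taf5l-KO and 166, 170.3 and 179 CPM in WT-Taf (-1.40 ± 0.051). Islr2, a membrane protein of developing neurons, was at 5.04, 4.18 and 5.0 CPM against 13.5, 16 and 15.1 CPM (-1.65 ± 0.11). Cbr3, a carbonyl reductase, was at 8.18, 9.42 and 9.96 CPM against 26, 22.5 and 23.9 CPM (-1.39 ± 0.11). Each of the 3 genes was lower in every knockout library than in any wild-type library, which was a condition for being named here. Rtn1, a reticulon of neuroendocrine cells (-1.52), the homeobox gene Nkx6-3 (-1.39), the orphan receptor Gpr83 (-1.31), the nuclear export factor Nxt2 (-1.31) and Sh3bgrl (-1.21) made up the rest.

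**Figure D1:**
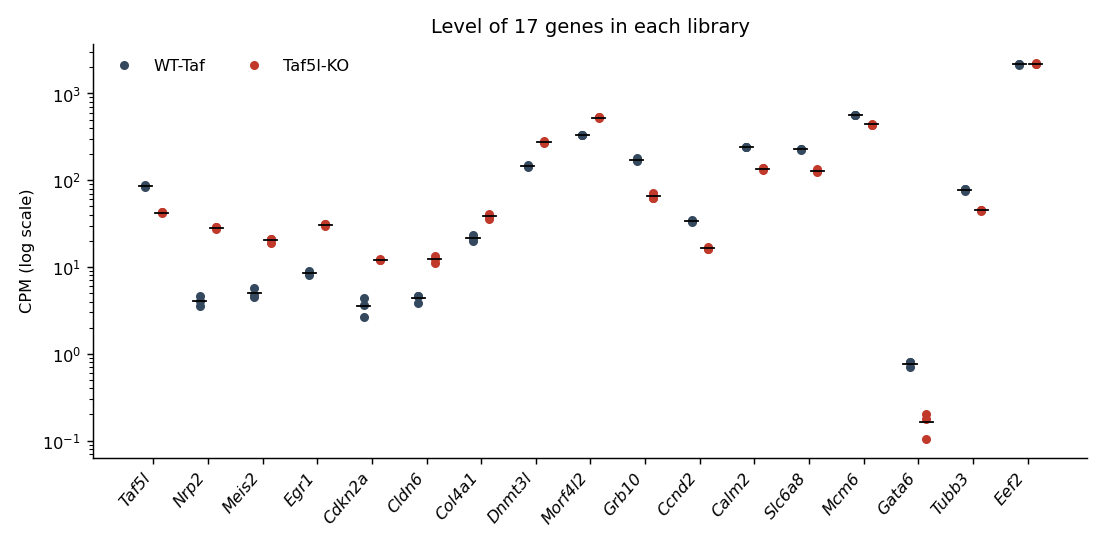
CPM of 17 genes (log axis) in each of the 3 WT-Taf (dark) and 3 Taf5l-KO (red) libraries, with a line at each group mean. The groups are apart in every gene shown except Eef2, and the spread within a group is small beside most of the differences, also where the difference is under 2-fold. The genes were picked from those named in the text, Eef2 as a steady gene and the others as called. Their separation follows in part from that choice.

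Many changes under 2-fold were among the best measured. Dnmt3l, a regulatory partner of the de novo DNA methyltransferases, was at 269, 279.9 and 273 CPM in Taf5l-KO and 141, 149 and 148 CPM in WT-Taf (0.91 ± 0.034, adjusted p = 4.31e-10). Morf4l2, a paralogue of a chromodomain subunit of the NuA4 acetyltransferase, was at 516, 538 and 531 CPM against 332, 329 and 329.6 CPM (0.68 ± 0.029). Both genes were nearly constant within each group. Lack of overlap between the groups was a condition for being named here too. Ctnnal1, an alpha-catenin-like protein (0.77), Plekhh1 (0.95), Trh, the precursor of thyrotropin-releasing hormone (0.83), and the phosphoinositide phosphatase Inpp5d (0.69) were the next rises by smallest p. Mest, a paternally expressed imprinted gene, was at 63.3, 65.7 and 64.7 CPM against 113, 113 and 114 CPM (-0.81 ± 0.032) and led the falls. Mest was not called on the authors' FPKM, where limma-trend gave -0.52 on the log2(FPKM + 1) scale with an adjusted p of 0.231. Jam2, a junctional adhesion molecule, fell by 0.69, and Slc6a8, the creatine transporter, was at 135, 124 and 129 CPM against 231, 228 and 224 CPM (-0.82 ± 0.034). Calm2 (-0.83), a calmodulin gene, and Cebpz (-0.75), also in this set, lie in the same stretch of chromosome 17, described below.

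Against these, some of the most abundant RNAs hardly differed. Eef2, the ribosome translocase, was at 2259, 2166 and 2171 CPM in Taf5l-KO and 2201, 2117 and 2204 CPM in WT-Taf (0.02 ± 0.031), and the ubiquitin ligase Trip12 at 1372, 1378 and 1429.6 against 1351, 1400.3 and 1427 CPM (0.00 ± 0.033). Their 95% intervals, and those of Tubb5, Tuba1b, Atp5b and Rpsa, lay within 0.1 of 0. Apart from Trip12 these genes have close relatives or processed copies in the genome, so their exact levels are uncertain.

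Genes were grouped into 58 lists by function. The share called in each list with at least 5 tested members is read here against all tested genes, and the per-library median of a list gives its spread. The share called also changes with level. Under 1 CPM 4.82% of tested genes rose and 2.91% fell, and over 64 CPM 21.8% rose and 28.8% fell. Lists were not matched for level, so for lists of abundant genes the share of falls over all tested genes is a low reference. That median was taken over log2(CPM + 0.5) minus the mean of the wild-type libraries, which places the wild-type libraries near 0 by construction. Of 56 such lists, all 3 Taf5l-KO libraries lay above all 3 WT-Taf libraries in 17 and below them in 18, and the groups overlapped in 21.

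**Figure D2:**
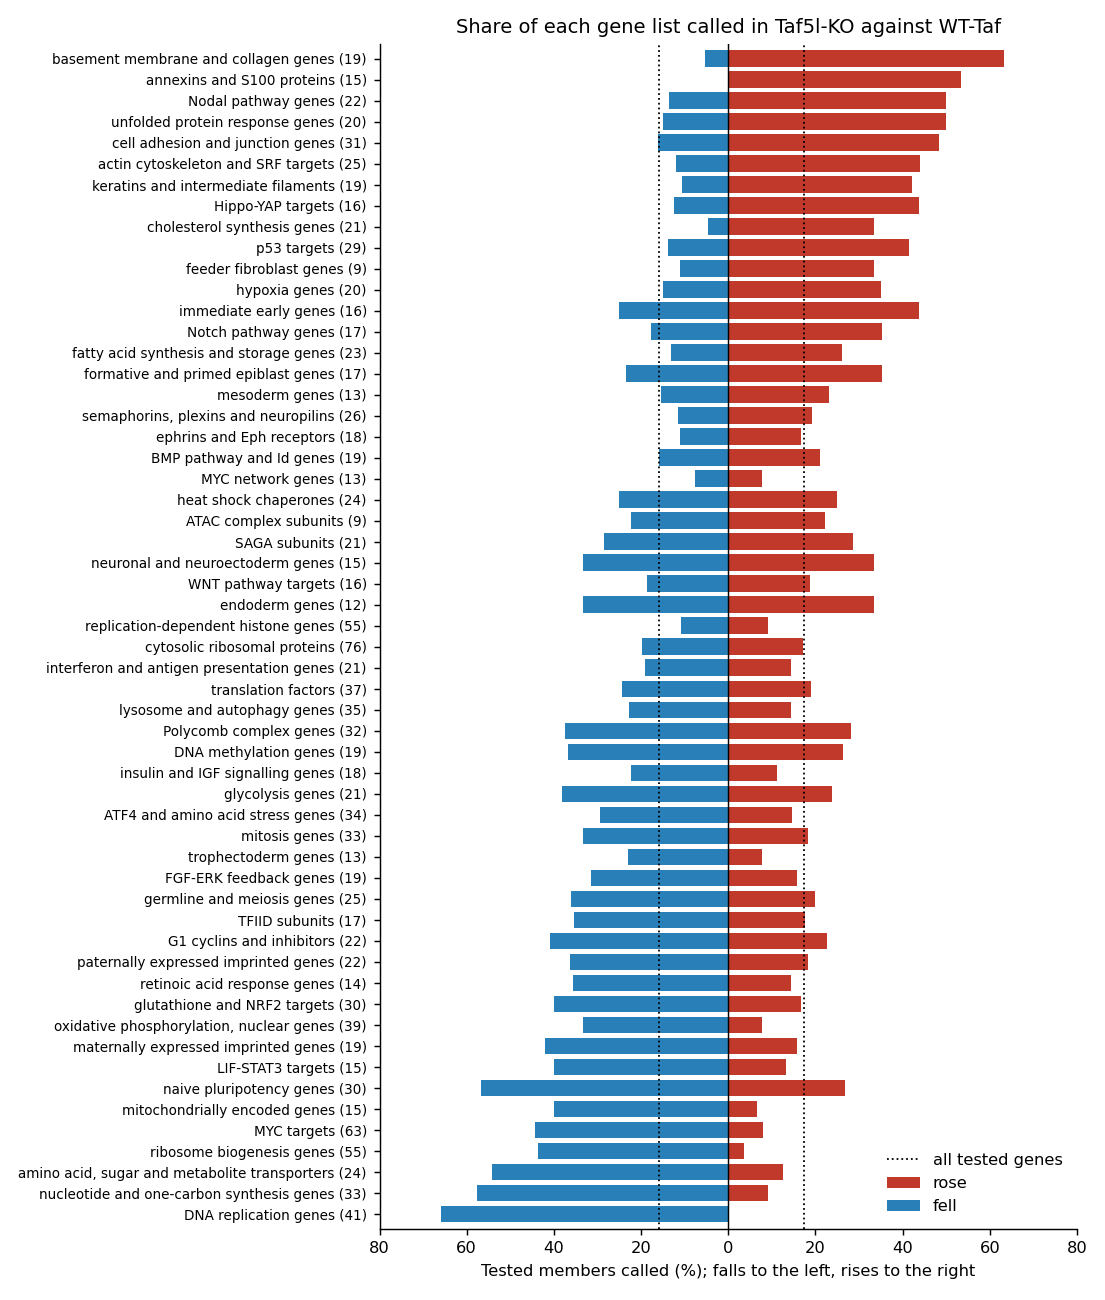
For each gene list (tested members in brackets), the percent of tested members that rose (red, to the right) and fell (blue, to the left) in Taf5l-KO; dotted lines mark the shares over all tested genes, 17.4% and 15.9%. DNA replication genes fell in 27 of 41 members with no rise, and basement membrane and collagen genes rose in 12 of 19.

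DNA replication was the list with the most one-sided fall. Of 41 tested members 27 fell and none rose, where 15.9% of all tested genes fell, with a median of -0.17. The per-library medians in Taf5l-KO were -0.20, -0.14 and -0.19, and those in WT-Taf lay between 0.00 and 0.01. Members include the replicative helicase, the origin-loading factors, polymerase alpha and the clamp and its loader. Mcm6, a helicase subunit, was at 436, 432 and 449 CPM in Taf5l-KO and 566, 566 and 563 CPM in WT-Taf (-0.36 ± 0.028). Gins2, of the GINS complex that completes the helicase, was at 29, 29.2 and 29.3 CPM against 41.2, 39.9 and 36.6 CPM (-0.43 ± 0.049). The falls were small but larger than the spread in both groups, which did not overlap. Mcm5 (-0.27), the methylation-maintenance factor Uhrf1 (-0.27), the origin-licensing factor Cdc6 (-0.32) and the clamp-loader subunit Rfc3 (-0.29) fell as well. Pola1 (-0.66), the catalytic subunit of polymerase alpha, had the largest difference but lies in a run of lower genes on the X chromosome.

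Replication genes are known for promoter sites of E2F, the transcription factor family that RB restrains. The promoters in the RefSeq table (build GRCm38.p6, 250 bases before to 50 after each gene's start) were searched on both strands for TTTCCCGC, TTTCGCGC, TTTGCCGC or TTTGGCGC. A promoter was matched for 34 of the 41 members, and 15 of these (44.1%) held at least 1 of the 4 motifs. Of all tested protein-coding genes with a promoter 4.82% did, and 2.26% of all 32851 promoters in the table. These are matches of letters, not measured binding. The 4 members of smallest p among falls with a match upstream of the start are shown, since they carry the feature the list shares; capitals mark the match, as spelled above or as its reverse complement, and each segment is 100 bases on the gene's own strand (Pola1 at chrX:93632254-93632353, minus; Uhrf1 at chr17:56304068-56304167, plus; Cdc6 at chr11:98907953-98908052, plus; Rfc3 at chr5:151651209-151651308, minus).
Pola1: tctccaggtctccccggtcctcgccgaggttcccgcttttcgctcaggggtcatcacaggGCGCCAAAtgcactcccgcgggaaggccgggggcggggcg
Uhrf1: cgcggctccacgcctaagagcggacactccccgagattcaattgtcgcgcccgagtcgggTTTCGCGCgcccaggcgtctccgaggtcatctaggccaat
Cdc6: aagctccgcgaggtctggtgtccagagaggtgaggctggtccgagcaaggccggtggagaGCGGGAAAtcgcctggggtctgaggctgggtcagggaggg
Rfc3: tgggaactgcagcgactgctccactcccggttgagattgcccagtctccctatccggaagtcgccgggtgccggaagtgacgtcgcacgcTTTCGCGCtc

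The matched letters thus face either way along these promoters, and they begin from 10 bases upstream of the gene start in Rfc3 to 185 bases in Uhrf1. For comparison, 7.14% of MYC target promoters and 4.17% of ribosome biogenesis promoters held the E2F motif. The E-box CACGTG, the site of MYC and related factors and its own reverse complement, was in 17 of 56 MYC target promoters (30.4%) and in 11.9% of all tested protein-coding genes with a promoter.

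Regulators of the G1 to S transition changed in both directions. Of 22 tested members 9 fell and 5 rose, with a median of -0.12. Ccnd2, a D-type cyclin that starts G1 progression, was at 16.3, 16.9 and 16.1 CPM in Taf5l-KO and 34.5, 33.4 and 34.4 CPM in WT-Taf (-1.05 ± 0.055). The other D-type cyclins Ccnd3 (-0.32) and Ccnd1 (-0.21) and the E2F genes E2f1 (-0.30) and E2f2 (-0.54) also fell. Inhibitors of the cycle were found on both sides: Cdkn1c, an imprinted one, fell (-0.61). Cdkn2a led the rises, and the p53-induced Cdkn1a (0.32) and the E2F repressor Rb1 (0.29) rose too, although the Rb1 call was lost in DESeq2 (adjusted p = 0.106) and its difference was 0.06 in limma-trend on log2(FPKM + 1). Of 33 mitosis genes 11 fell and 6 rose, with a median of -0.04 and overlapping per-library medians.

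Several growth and biosynthesis lists held more falls than rises, by small amounts. Cytosolic ribosomal proteins (13 rises and 15 falls of 76) and translation factors (7 and 9 of 37) were more even, with overlapping per-library medians. Of 55 ribosome biogenesis genes, which make and process ribosomal RNA, 24 fell and 2 rose, with a median of -0.09. Their per-library medians were -0.12, -0.07 and -0.07 in Taf5l-KO. Nhp2 (-0.29), a core protein of H/ACA small nucleolar particles, its X-linked partner Dkc1 (-0.26) and the export adaptor Nmd3 (-0.31) led the falls. Of 33 genes that make nucleotides or handle one-carbon units, 19 fell and 3 rose, with per-library medians of -0.13, -0.11 and -0.11. Rrm2, a subunit of ribonucleotide reductase, fell by 0.32, and Dhodh, of pyrimidine synthesis, by 0.38. Among 63 MYC targets there were 28 falls and 5 rises (median -0.08). Myc itself was at 43.1, 41.5 and 43.4 CPM in Taf5l-KO and 70.1, 65.5 and 71.8 CPM in WT-Taf (-0.69 ± 0.051), well apart. Of 13 tested MYC network genes it was the only fall, and its paralogue Mycn was the only rise (0.37).

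Transporters and redox genes were lower too. Of 24 transporters of amino acids, sugars and metabolites 13 fell and 3 rose, with per-library medians of -0.11, -0.19 and -0.12 in Taf5l-KO. Slc29a1, a nucleoside transporter, was at 133, 128 and 127 CPM against 208, 206 and 205 CPM (-0.67 ± 0.032), and the neuronal-type glucose transporter Slc2a3 at 532, 499 and 513 CPM against 677, 691 and 677 CPM (-0.41 ± 0.031). Both were lower in every knockout library. The glutamine transporter Slc38a1 (-0.38) and the mitochondrial ADP/ATP carrier Slc25a4 (-0.43) fell as well. Of 30 glutathione and NRF2 target genes 12 fell and 5 rose (median -0.11): the regulator Nfe2l2 (-0.34), which encodes NRF2, the peroxiredoxin Prdx1 (-0.30), sulfiredoxin Srxn1 (-0.60) and the X-linked G6pdx (-0.52) were among the falls. The metallothionein Mt1 (0.50) and the glutathione transferase Gstp1 (0.51) rose, but Gstp1 was at 0.04 without a call in limma-trend on log2(FPKM + 1), with an adjusted p of 0.764. Of 15 mitochondrially encoded genes 6 fell and 1 rose. The largest fall was that of the cytochrome oxidase gene mt-Co1, at 2701, 2685 and 2637 CPM against 4274, 4345 and 4229.5 CPM (-0.68 ± 0.032).

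Genes of the cell surface, matrix and cytoskeleton moved the other way. Basement membrane and collagen genes rose in 12 of 19 tested members and fell in 1, against 17.4% and 15.9% of all tested genes, with a median of 0.20 and per-library medians of 0.29, 0.18 and 0.19 in Taf5l-KO. Col4a1, a chain of the collagen IV network, was at 41.3, 36.2 and 39 CPM in Taf5l-KO and 23.5, 19.7 and 21.6 CPM in WT-Taf (0.85 ± 0.066). Lamb1, a laminin chain, was at 65.3, 60.2 and 62.4 CPM against 44.1, 45.8 and 46.3 CPM (0.46 ± 0.046). Neither gene overlapped between groups. The laminin chain Lama1 (0.43) and the collagen-binding Sparc (0.33) rose. The proteoglycan gene Hspg2 was the 1 fall (-0.29 ± 0.078).

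Adhesion and junction genes rose in 15 of 31 members and fell in 5, with per-library medians of 0.16, 0.14 and 0.13. Cldn6, a tight-junction claudin of early embryonic epithelium, was at 11.3, 12.5 and 13.2 CPM in Taf5l-KO and 3.88, 4.67 and 4.67 CPM in WT-Taf (1.49 ± 0.10). Cdh1, the E-cadherin gene, was at 314, 299.6 and 310.0 CPM against 232, 233 and 237 CPM (0.40 ± 0.03). Both junction genes were higher in every knockout library than in any wild-type library. The desmosomal linker Dsp (0.81) and the integrin subunit Itgav (0.52) rose, while Jam2 and Epcam (-0.38), the latter in the lower run on chromosome 17, fell. With limma-trend on log2(FPKM + 1) this list held 7 rises and 4 falls.

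Annexins and S100 proteins, calcium-dependent proteins of the membrane and cortex, rose in 8 of 15 members with no fall. Their per-library medians, 0.25, 0.33 and 0.23, were on average the highest among the lists in the plot of list medians. Anxa2 was at 20.3, 19.7 and 17.7 CPM against 4.31, 4.87 and 4.67 CPM (2.06 ± 0.09), and its S100 partner S100a10 at 56, 55.5 and 49.1 CPM against 40.8, 40.0 and 40.5 CPM (0.41 ± 0.051). Anxa6 (0.52) and S100a11 (0.65) rose with this pair. Actin cytoskeleton and SRF target genes rose in 11 of 25 members and fell in 3. Tropomyosin Tpm4 (0.39) and calponin Cnn2 (0.54) rose, and the X-linked filamin Flna fell (-0.52). Keratins and other intermediate filament genes rose in 8 of 19 and fell in 2, among them the simple-epithelium pair Krt8 (0.30) and Krt18 (0.44), although Krt18 was not called by DESeq2 (adjusted p = 0.0704). Of 16 targets of the Hippo effector YAP 7 rose and 2 fell, including the phosphatase Ptpn14 (0.49), Amotl1 (0.59) and the matricellular Ctgf (0.76), which was not called in limma-trend on log2(FPKM + 1), with an adjusted p of 0.227.

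**Figure D3:**
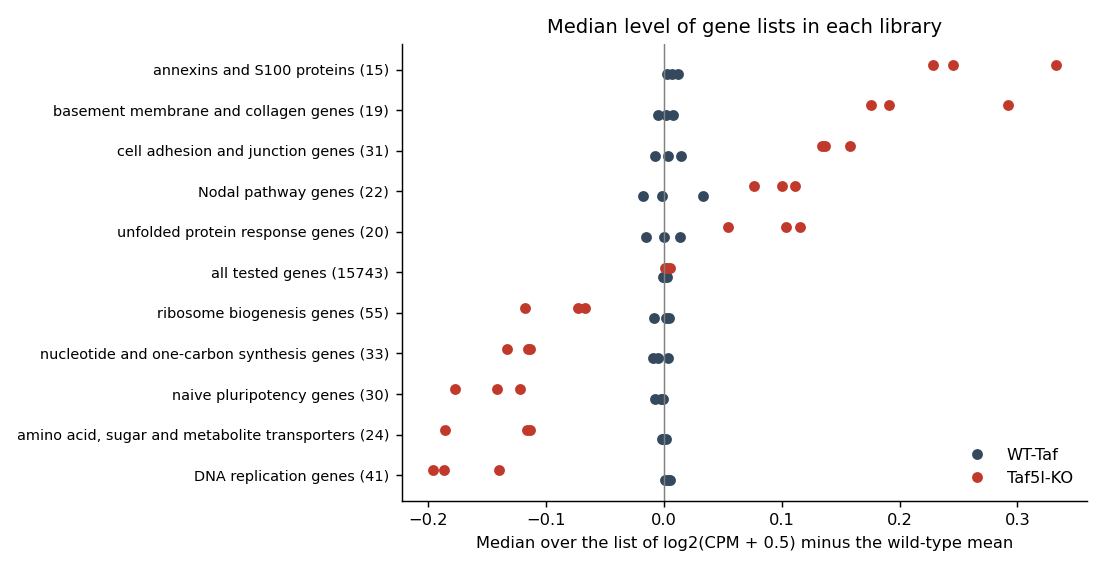
Median over the tested members of a list (number in brackets) of log2(CPM + 0.5) minus the wild-type mean, for each WT-Taf (dark) and Taf5l-KO (red) library. All 3 Taf5l-KO points lie to one side of the 3 WT-Taf points in the 10 lists shown, which were picked for a clear difference, and the medians over all 15743 genes lie at 0.00 or 0.01.

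In the Nodal pathway, a TGF-beta family branch active in embryonic stem cells, feedback inhibitors and processing enzymes rose, while no tested ligand did. Of 22 tested members 11 rose and 3 fell. The feedback inhibitor Lefty1 was at 11.3, 9.93 and 9.75 CPM against 2.42, 1.79 and 1.89 CPM (2.34 ± 0.13) and Lefty2 at 18.1, 12.7 and 14.2 CPM against 4.79, 3.68 and 3.11 CPM (1.94 ± 0.16). The proprotein convertases Furin (0.36) and Pcsk6 (0.28), which cleave the Nodal precursor, and Foxh1 (0.44), the DNA-binding partner of the SMADs, rose as well. Nodal itself was at 19.3, 19.6 and 19.3 CPM against 20.4, 21.3 and 23.1 CPM (-0.15 ± 0.062, adjusted p = 0.0825) and its co-receptor Tdgf1 at 468, 449 and 461 CPM against 481, 472 and 463 CPM (-0.04 ± 0.03), neither called. The activin subunit Inhbb (-0.34), the receptor regulator Dact2 (-0.40) and the ligand Gdf3 (-0.14) fell.

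Several Notch receptors and Jagged ligands rose, and 3 genes of the nuclear end of the pathway fell. Notch4 was at 31.9, 26.9 and 26.4 CPM in Taf5l-KO and 13, 14.6 and 14.6 CPM in WT-Taf (1.01 ± 0.079), Notch3 rose by 0.68, and the ligands Jag1 and Jag2 by 0.43 and 0.48. Hes1, the classical target, was at 28.8, 26.9 and 25.6 CPM against 39.9, 39.5 and 38.3 CPM (-0.54 ± 0.05), and the DNA-binding mediator Rbpj fell by 0.18. In the list as a whole 6 of 17 members rose and 3 fell, and the per-library medians of the groups overlapped. For Hes6, the other fall (-0.53), the call was lost in DESeq2 (adjusted p = 0.0531) and without Taf5l-KO library 2 (0.0556), Taf5l-KO library 3 (0.0591) or WT-Taf library 2 (0.0629).

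Feedback genes of FGF-ERK signalling, which report the activity of that pathway, fell in 6 of 19 members and rose in 3. The feedback inhibitor Spry4 was at 211, 196 and 209 CPM against 304, 296 and 298 CPM (-0.54 ± 0.037), and Dusp6 (-0.46), an ERK phosphatase, Etv4 (-0.40) and the ligand Fgf4 (-0.31) fell too. Egr1, the receptor gene Fgfr1 (0.35) and the nuclear ERK phosphatase Dusp5 (0.75) rose. Of 16 immediate early genes 7 rose, with Fos (0.99) and the mRNA-decay factor Zfp36 (0.97) after Egr1, and 4 fell, among them Ier2 (-0.35) and Atf3 (-1.38). DESeq2 called 3 rises and 4 falls in that list. BMP pathway and Id genes rose in 4 of 19 and fell in 3, near the shares over all tested genes and with overlapping per-library medians, with the ligand Bmp4 (-0.51) and the target Id3 (-0.49) among the falls.

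Several stress and lipid lists rose in part. Unfolded protein response genes rose in 10 of 20 members and fell in 3, with per-library medians of 0.05, 0.12 and 0.10. Hspa5, the main chaperone of the endoplasmic reticulum, was at 744, 775 and 782 CPM in Taf5l-KO and 662, 651 and 653 CPM in WT-Taf (0.23 ± 0.029), and the disulfide isomerases Pdia6 (0.30) and Pdia3 (0.18) rose with it. Its partner chaperone Hsp90b1 fell (-0.24), as did Sel1l (-0.53), which lies in the lower run on chromosome 12. Of 29 targets of p53 12 rose and 4 fell, led by Phlda3 (0.31), the BH3-only gene Pmaip1 (0.78) and Sesn1 (0.39). Cholesterol synthesis genes rose in 7 of 21 and fell in 1, by small amounts (median 0.10), with Insig1 (0.26) and Fdft1 (0.22) higher and the X-linked Nsdhl lower (-0.26). The fatty acid desaturase Scd2 was at 302, 276 and 277 CPM against 175, 167 and 172 CPM (0.74 ± 0.038), and Scd1 rose by 0.45, while Cpt1a (-0.44), which admits fatty acids to mitochondria, fell. Among 20 hypoxia genes 7 rose and 3 fell: Ak4 (0.51), Ndrg1 (0.60) and Egln3 (0.74) were higher and Vegfa (-0.37) was lower.

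There were 17 falls and 8 rises among 30 naive pluripotency genes, and their per-library medians were -0.14, -0.12 and -0.18 in Taf5l-KO. Targets of LIF-STAT3 signalling, which sustains that state, fell in 6 of 15 and rose in 2. Of 25 germline and meiosis genes 9 fell and 5 rose. Sohlh2, a transcription factor of early germ cells, was at 24.3, 26.2 and 24.2 CPM against 44.6, 44.2 and 46 CPM (-0.85 ± 0.056), while Prdm1, the repressor that starts germ cell specification, was at 16.4, 15.7 and 13.6 CPM against 7.0, 7.25 and 6.76 CPM (1.11 ± 0.092). The groups were apart in both, in opposite directions. The receptor tyrosine kinase Kit (-0.36) and the piRNA factor Mael (-0.71) fell, and the piRNA factor Tdrd12 rose (0.68).

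Chromatin and lineage lists were mixed. Of 32 Polycomb complex genes 12 fell and 9 rose. The subunit Pcgf2 was at 47.7, 45.1 and 48.1 CPM against 66.6, 67.5 and 68.5 CPM (-0.52 ± 0.038) and Cbx7, the main Cbx protein of embryonic stem cells, fell (-0.28). Bcor (0.47), Pcgf5 (0.62) and Cbx8 (1.19) rose, the last from a very low level (0.808, 0.596 and 0.879 CPM in WT-Taf) and without a call in limma-trend on log2(FPKM + 1), with an adjusted p of 0.409. Among DNA methylation genes Dnmt3l led the rises, and the imprint protector Zfp57 (-0.41) and the oxidases Tet1 (-0.23) and Tet2 (-0.35) fell. Imprinted genes expressed from the paternal allele fell in 8 of 22 and rose in 4, with Peg10 (-0.49) and Ndn (-0.92) lower and Peg3 (0.54) higher. Those expressed from the maternal allele fell in 8 of 19 and rose in 3, with Grb10 and Phlda2 (-0.66) lower and Meg3 (0.63) and Rian (0.31) higher.

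Primitive endoderm regulators were at very low levels in all libraries. Gata6 was at 0.178, 0.204 and 0.104 CPM in Taf5l-KO and 0.808, 0.695 and 0.811 CPM in WT-Taf (-2.20 ± 0.40), Sox7 and Pdgfra fell as well, and Gata4 was at 3.08, 3.46 and 3.86 CPM against 2.42, 1.84 and 1.76 CPM (0.78 ± 0.19), a rise. So the named regulators of this lineage did not share a direction, and the Pdgfra call was lost in DESeq2 (adjusted p = 0.0831), without Taf5l-KO library 1 (0.0723) and without WT-Taf library 1 (0.106). Of the 6 defining primitive endoderm markers 5 were tested, with 1 rise and 3 falls and a summed level of 6.48 to 6.90 CPM against 7.36 to 8.78 CPM by plain library totals. Neuronal genes rose in 5 of 15 and fell in 5: the neuronal tubulin Tubb3 was at 45.3, 45.1 and 44.4 CPM against 79.9, 79.3 and 75.5 CPM (-0.80 ± 0.038) and Stmn3 (-1.07) and the RNA-binding Elavl3 (-1.15) were lower, whereas the growth cone gene Gap43 (0.57) and Pax6 (0.92) were higher. The defining neuroectoderm markers, mostly Tubb3, summed to 47.0 to 49.2 CPM against 77.7 to 80.9 CPM, by plain library totals. The interferon-inducible membrane genes Ifitm1 (0.82) and Ifitm3 (0.52), which are near copies of each other, rose, and the class I antigen genes H2-D1 (-0.95), also with near copies, and B2m (-0.49) fell. In the interferon and antigen presentation list as a whole 3 of 21 members rose and 4 fell, near the shares over all genes.

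The authors' FPKM gave fewer calls than the counts. Besides the genes for which this is said above, limma-trend on log2(FPKM + 1) called no difference for Atxn7, Trrap, Taf12, Ccnd1, E2f2, Hspg2, Pcsk6, Hes6, Fgfr1, Atf3, Sel1l, Srxn1, Fdft1, Sox7, Elavl3, Pax6, Dhodh, Ndrg1, Zfp57, Cdkn1c or Tet1. The direction of each was as in the counts. Rbpj lost its call when all 15 libraries entered the fit. Of 195 genes followed over the settings, 7 lost their call in that fit and 18 on the authors' normalized counts.

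Small non-coding RNAs rose far more often than they fell. Of 158 tested small nucleolar RNAs, which guide chemical modification and processing of ribosomal RNA, 65 rose (41.1%) and 2 fell, with a median difference of 0.57. Of 19 small nuclear RNAs 9 rose and 1 fell. All small nucleolar RNAs together held 0.160% ± 0.00938 of counts in Taf5l-KO and 0.105% ± 0.00869 in WT-Taf (SD, n = 3). The libraries also differed in make-up: protein-coding genes held 75.8% to 78.5% of counts in Taf5l-KO and 79.4% to 80.0% in WT-Taf. All small RNAs held 2.80% to 3.12% and 2.48% to 2.76%. The part of this make-up in the rises was not tested. Of 625 long non-coding RNAs 44 rose (7.04%) and 18 fell (2.88%), both under the shares over all tested genes (17.4% and 15.9%). Shares were also low for tested genes of low level: 4.82% rose and 2.91% fell under 1 CPM, and 11.1% and 8.94% at 1 to 4 CPM. The part of level in the shares of this class was not tested.

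The 2 small nucleolar RNAs below have their sequences shown because they show how alike the counted copies can be. Snora73a and Snora73b are of the H/ACA class and act in early processing of ribosomal RNA; the capitals mark the ACA box near the end, and the sequences (GENCODE M21 transcripts, 205 bases each) are identical in 96.6% of positions.
Snora73a: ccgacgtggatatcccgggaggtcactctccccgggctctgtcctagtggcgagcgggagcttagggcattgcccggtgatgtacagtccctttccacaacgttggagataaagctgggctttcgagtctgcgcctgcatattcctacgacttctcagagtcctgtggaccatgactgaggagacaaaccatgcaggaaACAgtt
Snora73b: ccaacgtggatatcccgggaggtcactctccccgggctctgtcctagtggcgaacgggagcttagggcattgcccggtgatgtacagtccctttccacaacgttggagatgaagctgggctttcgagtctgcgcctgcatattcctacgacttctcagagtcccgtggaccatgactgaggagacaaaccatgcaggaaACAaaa

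Snora73a was at 262, 293 and 266 CPM in Taf5l-KO and 179, 151 and 143 CPM in WT-Taf (0.79 ± 0.091), and Snora73b at 207, 227 and 201 CPM against 166, 132 and 134 CPM (0.56 ± 0.093). Reads of this pair can be split in either way, but both copies were higher in every knockout library. The pair was chosen after its values were seen.

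Falls were not spread evenly over the genome. On the X chromosome 177 of 564 tested genes fell (31.4%) and 64 rose. Windows of 20 neighbouring tested protein-coding genes with at least 13 calls of 1 direction were joined into runs; this search was made after the data had been seen. It found long runs of falls on chromosomes 12, 17 and X. Shorter ones were a single window of falls on chromosome 11 (Nhp2 to Uqcrq, 13 of 20, median -0.17) and a run of rises on chromosome 9 (Gcnt3 to Prtg, 14 of 21, median 0.17). On chromosome 17 the run from Slc30a6 to Gm10184 held 62 genes, 49 of which fell and none rose, with a median difference of -0.62. On chromosome 12 the run from 1810035L17Rik to Dio3 held 66 genes, 42 of which fell and 3 rose, with a median of -0.46. The run on the X chromosome, from Fhl1 to Zfp711, held 170 genes, 121 of which fell and 2 rose, with a median of -0.44. The runs were defined by falls in this same contrast, so their low medians follow from the choice. Over the rest of chromosomes 17, 12 and X 17.2%, 16.4% and 16.8% of such genes fell, near the 15.9% over all tested genes.

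**Figure D4:**
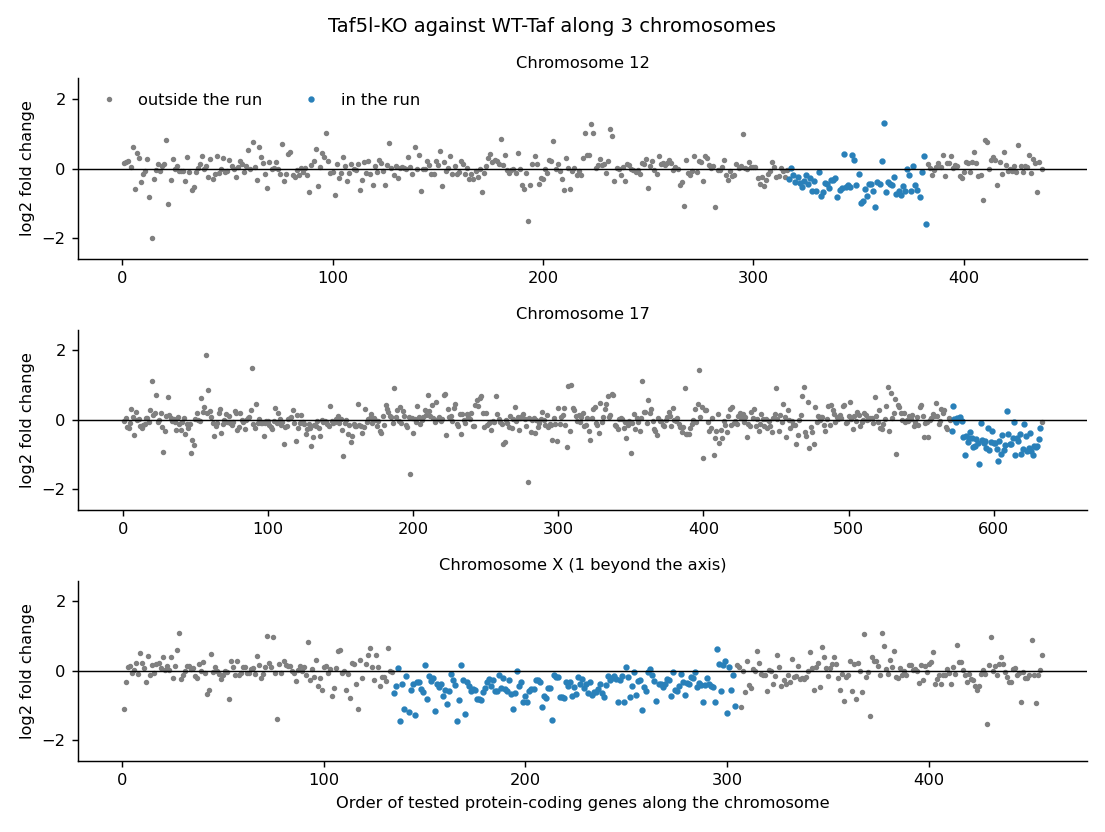
Log2 fold change of Taf5l-KO over WT-Taf for tested protein-coding genes in their order along chromosomes 12, 17 and X, with genes of the 3 runs in blue. Within the runs most genes sit below 0, with medians of -0.46, -0.62 and -0.44, and outside them the values scatter around 0. The runs were chosen for falls in this contrast, so the low values within them follow from the choice.

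Calm2 lies in the run on chromosome 17. It was at 131, 139 and 139 CPM in Taf5l-KO and 242, 243 and 243 CPM in WT-Taf (-0.83 ± 0.034). Counts in the run on chromosome 17 were set against those in all other protein-coding genes of the chromosome. This share was 7.20% ± 0.138 in Taf5l-KO and 11% ± 0.0973 in WT-Taf (SD, n = 3). In each run a lower share in Taf5l-KO than in WT-Taf follows from how the runs were chosen. The libraries of the Myc experiment differ in make-up, with 93.8% to 94.3% of counts in protein-coding genes against 75.8% to 81.7% in the 9 Taf libraries, and 0.0226% to 0.0582% against 2.00% to 3.12% in small RNAs, so shares across the experiments are set side by side only; the part of that difference in them was not tested. The same share was 7.64% ± 0.131 in Taf6l-KO, 6.32% ± 0.444 in Myc-KO and 10.3% ± 0.511 in the wild type of the Myc experiment. On chromosome 12 the shares were 8.83% ± 0.128 in Taf5l-KO, 12.3% ± 0.0705 in WT-Taf, 9.01% ± 0.0610 in Taf6l-KO, 8.24% ± 0.196 in Myc-KO and 13.6% ± 0.181 in the other wild type. In both runs all 9 knockout libraries, of 3 different knockouts, were below all 6 wild-type libraries. The X run differed: WT-Taf stood alone at 93.4% ± 0.274, while Taf5l-KO (69.7% ± 0.577), Taf6l-KO (68.6% ± 0.252), Myc-KO (74.4% ± 2.81) and the wild type of the Myc experiment (76.6% ± 1.22) were all lower. Its median in the direct contrast of Taf5l-KO with Taf6l-KO was 0.00.

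**Figure D5:**
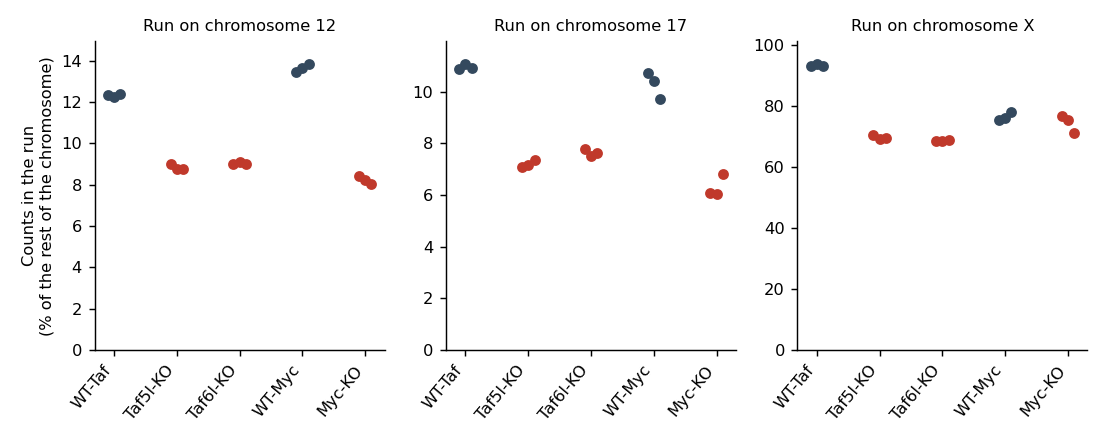
Counts in the genes of each run as a percent of the counts in all other protein-coding genes of its chromosome, tested or not. All 15 libraries are shown (wild types dark, knockouts red), and axes start at 0. The runs were chosen for falls in Taf5l-KO against WT-Taf. On chromosomes 12 and 17 the 9 knockout libraries lie below the 6 wild-type libraries, and on X the 3 WT-Taf libraries lie above the other 12.

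The 3 long runs, chosen for their falls, held 1.89% of tested genes, 8.48% of falls and 96 of the 489 falls of at least 1.5-fold (19.6%). Genes named above that lie in them are Calm2, Cebpz and Epcam on chromosome 17, Sel1l on chromosome 12, and Pola1, Taf1, Slc6a8, Sh3bgrl, Flna, G6pdx, Dkc1, Taf9b and Nsdhl on X. Without the runs, 17.7% of genes rose and 14.8% fell, and DNA replication genes still fell in 26 of 40 members. Of the lists with unequal numbers of rises and falls, only cytosolic ribosomal proteins lost that order outside the runs, with 13 of each. On the Y chromosome all 5 tested genes rose, among them Ddx3y at 82.4, 89.4 and 92.2 CPM against 45.5, 53.6 and 48.5 CPM (0.84 ± 0.057), whose reads may be shared with its X-linked relative.

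Gene length also differed between rises and falls. Tested protein-coding genes that rose spanned a median of 41.2 kb in the GENCODE M21 annotation, those that fell 19.9 kb and those not called 22.6 kb. Among the 3288 longest genes 27.6% rose and 13.7% fell, and among the 3290 shortest 10.4% rose and 21% fell. Rises were longer than falls in each of 4 classes of mean level, from 27.5 kb against 25.9 kb under 4 CPM to 46.0 kb against 21.4 kb over 64 CPM. Falls were longer than genes not called under 4 CPM (20.9 kb), unlike in the other classes. The part of gene length in the differences of the lists was not tested.

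To see where the Taf5l knockout stands apart from the knockout of its partner, Taf5l-KO was compared directly with Taf6l-KO in the same fit. Of the 15743 genes 1592 were higher in Taf5l-KO (10.1%) and 1346 lower (8.55%), but only 28 and 89 of these by at least 2-fold. The scaling matters here: with library totals in place of TMM the counts were 620 higher and 3039 lower. Taf6l, the gene knocked out in the other group, was at 18.6, 21.5 and 21.3 CPM in Taf5l-KO and 6.53, 7.16 and 6.06 CPM in Taf6l-KO (1.65 ± 0.082). Smoc1, a secreted calcium-binding protein, was at 8.06, 7.33 and 7.35 CPM in Taf5l-KO, 19.9, 18.8 and 19.6 CPM in Taf6l-KO and 6.84, 7.75 and 6.96 CPM in WT-Taf, a direct difference of -1.36 ± 0.075. Arhgap30, a GTPase-activating protein, was at 8.72, 9.67 and 9.28 CPM in Taf5l-KO, 23, 23.3 and 23.7 CPM in Taf6l-KO and 8.46, 8.79 and 7.84 CPM in WT-Taf (-1.34 ± 0.067). In both genes the Taf6l-KO libraries stood above the other 6.

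The replication-dependent histone genes, which make the histones of newly replicated DNA and whose RNAs lack poly(A) tails, showed the highest share of direct calls among the lists. Of 55 tested 50 were higher in Taf5l-KO than in Taf6l-KO and 1 lower, with a median of 0.46, and with library totals 49 were higher and 1 lower (median 0.37). Hist2h3c1 was at 22.8, 22.6 and 15.8 CPM in Taf5l-KO, 12, 8.49 and 12 CPM in Taf6l-KO and 8.24, 9.49 and 9.33 CPM in WT-Taf (0.90 ± 0.14). GENCODE M21 does not class it as protein-coding. Hist1h4n had a larger direct difference (1.04 ± 0.11). It was at 184, 217 and 154 CPM in Taf5l-KO, 103, 91.6 and 74.2 CPM in Taf6l-KO and 115, 115 and 106 CPM in WT-Taf. Both genes rose against WT-Taf (1.17 and 0.72), while the median of the list against WT-Taf was -0.09. Against wild type the same list showed 5 rises and 6 falls, and the per-library medians in Taf5l-KO were 0.04, 0.03 and -0.33, with library 3 apart from the other two. Without that library the list held 11 rises and 3 falls. Histone genes are near copies of each other, so single members are uncertain. Genes of the ATF4 amino acid stress response were higher in Taf5l-KO than in Taf6l-KO in 18 of 34 members and lower in 1 (7 and 1 with library totals), and p53 targets were lower in 10 of 29 with none higher (15 and none with library totals). For DNA replication genes 10 of 41 were higher and 5 lower, with a median direct difference of 0.03, but with library totals 1 was higher and 14 lower (median -0.07).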

How the data were processed

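Per the labels' protocols, ribosomal RNA was depleted from total RNA and libraries were made with a directional kit; the mm9 build and the tools DESeq2 1.14.1 and Salmon 0.8.2 are listed, per the submitters' processing notes, with no step given for each. The authors deposited estimated counts per gene, given as whole numbers without normalization, as the main table used here. They also deposited normalized counts, a signal scaled between libraries in a way not given in the sources used here, and FPKM values, scaled by the authors to gene length and library size. 15 value columns of a TPM table could not be tied to samples by name and were not used.

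The counts of the 9 libraries of the Taf experiment, which share 1 estimate of the spread, were filtered with filterByExpr, scaled by TMM and fitted with edgeR 4.0.16 (R 4.3.3), with no block. Both contrasts used the quasi-likelihood test with Benjamini-Hochberg adjustment over all tested genes. SE is the absolute log2 fold change divided by the square root of F. On simulated counts for Taf5l-KO against WT-Taf (15646 genes) the share of changed genes called was 63.5% at 1.5-fold, 85.1% at 2-fold and 96.6% at 4-fold, and 18 of 179 calls were false. CPM were computed with the TMM-adjusted totals, and marker sums with plain totals. Library totals limit precision for genes of low level.

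Members and lists were chosen with earlier results of these data known. Genes named were the 8 largest rises and falls with a mean of at least 100 counts and no overlap between groups, leaving out small RNAs and clone-like names, the 6 of smallest p each way under 2-fold by the same criteria, up to 5 called members of each list in each direction by p, 6 abundant steady genes, and the 6 largest each way in the direct contrast, fewer where the text gives fewer. Gene class, chromosome, order and span came from GENCODE M21 (GRCm38), to which 87.4% of 37310 identifiers matched. Promoters came from RefSeq, matched by Entrez gene identifier and otherwise by symbol. Since the files use mm9, no coordinates of measured genes are given except those of the printed promoter segments, which are on GRCm38.p6. Alternatives used DESeq2 1.42.0, library totals or RLE in place of TMM, every gene without the filter, a 2-fold threshold, a replicate block, other sets of libraries or genes, and limma 3.58.1 on log2(FPKM + 1), log2(FPKM + 0.1) (mean FPKM of at least 0.5) and log2 normalized counts.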

Additional observations from a re-analysis of the deposited data

How the results depend on the processing

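The 2735 rises and 2499 falls against WT-Taf were within 1.5 times under RLE scaling, library totals, no filter, the replicate block, other sets of libraries and protein-coding genes alone. The balance of directions was less steady. Library totals gave 2296 rises and 2751 falls, so that 45.5% of calls were rises in place of 52.3%, and all 15 libraries gave 1929 and 1947. DESeq2 gave 1802 rises. A threshold of at least 2-fold left 276 and 158. Limma-trend gave 1391 rises and 1242 falls on log2(FPKM + 1), 1418 and 1245 on log2(FPKM + 0.1), and 1615 falls on normalized counts. Leaving out 1 library gave 2224 to 2518 rises and 2019 to 2233 falls. Outside the runs on chromosomes 12, 17 and X, a setting chosen after seeing the data, 2622 rose and 2366 fell. In the direct contrast with Taf6l-KO (1592 higher, 1346 lower), library totals gave 620 and 3039, so that 16.9% of calls were higher in place of 54.2%. DESeq2 gave 693 lower, a 2-fold threshold 28 and 89, and all 15 libraries 844 and 803. Leaving out 1 library gave 1113 to 1467 higher and 909 to 1167 lower. Of the lists, 20 had more rises than falls and 29 more falls; at least 2-fold, 13 and 9 did, and with 1 library left out 19 to 23 and 28 to 31. BMP and immediate early genes lost their excess of rises in DESeq2, and histone genes showed more rises than falls without Taf5l-KO library 3 (11 and 3) or WT-Taf library 1 (5 and 2).

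The same replicate numbers do not pair the libraries: deviations from the group means correlated at -0.02, -0.08 and -0.08 between same-numbered libraries, and not every library correlated best with its own number. The replicate block gave 2695 rises and 2491 falls, and 1577 higher and 1275 lower in the direct contrast. Over the other settings no named gene reversed. Depth limits genes such as Gata6 and Cbx8, at under 1 CPM in at least 1 group.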
